A study of Epinephelus fuscoguttatus x Epinephelus lanceolatus with 9 samples.

Results

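Aquaporins were taken as the genes of the count table whose symbol begins with aqp and a number, which gave 8 of 22344 genes: aqp3a, aqp7, aqp8b, aqp9b, aqp10a, aqp10b, aqp11 and aqp12. The symbols alone decided membership, but the family was chosen by the measured levels of aqp10a in FM and Drug, almost absent in the first and abundant in the second, so the levels of aqp10a are given as a description with no test. RNA was sequenced from the intestine of the pearl gentian grouper, a farmed marine hybrid of Epinephelus fuscoguttatus and Epinephelus lanceolatus, in 3 libraries each of groups labelled FM, SBM and Drug. In aquaculture these letters usually stand for fish meal and soybean meal, which the labels do not state, and the Drug group is linked to the herb Lithospermum erythrorhizon only through the series title. The labels give no dose, duration, base diet, age, time of sampling or gut segment for any group, and nothing in them ties each library to a fish of its own, so p-values reflect the spread among these libraries only, which may be technical. A gene known only by a LOC number, as 8101 genes of the table are, could not be matched, so further aquaporins may lie among those.

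Aquaporins are membrane channels that let water, and in some members small uncharged solutes, cross cell membranes along their gradients. Marine bony fish lose water to the sea, drink, and take up water across the intestinal wall behind absorbed salt. The members measured here fall into aquaglyceroporins, which pass glycerol as well as water (aqp3a, aqp7, aqp9b, aqp10a and aqp10b), an aqp8-type channel (aqp8b), which in mammals also passes ammonia, and the distant members aqp11 and aqp12, which in mammals sit mainly in intracellular membranes. In humans AQP10 is an aquaglyceroporin of the absorptive epithelium of the small intestine. Bony fish carry duplicated copies of many aquaporins, written a and b, and reads of near-identical copies can be split between them by the counting.

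Total counts were 32.9 to 35.5 M per library. As a check of the labelled tissue, fabp2, the intestinal fatty acid-binding protein, was at 402 to 6598 CPM (counts scaled to library size with TMM factors) in all 9 libraries. FM replicate 3 stood apart. The 11 hepatocyte markers in the table summed to 18910 CPM in it, with none of them at 0, and to between 13.1 and 40.6 CPM in the other 8 libraries. Results that rest on this library are given with and without it. In bulk tissue, fewer cells of a type and less RNA per cell cannot be told apart.

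Per unit of length, aqp10b had the highest level of the 8 aquaporins matched by symbol in every library. On the scale of FPKM (fragments scaled by gene length and library total, as deposited by the authors), aqp10b held 53.0% to 98.6% of the summed level of the 8 aquaporins, and aqp10a with aqp10b together held 82.4% to 98.8%. The summed aquaporin level was 108 ± 10.29 FPKM in FM, 92.0 ± 40.4 in SBM and 109 ± 12.4 in Drug (SD, n = 3). SBM replicate 2 was the low library, with 48.7 FPKM, and the other 8 lay between 97.3 and 129 FPKM. By median over the 9 libraries the order was aqp10b (95.1 FPKM), aqp10a (1.63), aqp7 (1.33), aqp12 (0.474), and then aqp11, aqp9b and aqp3a, all under 0.1 FPKM. The place of aqp10a depended on the group. By the medians within SBM (1.63 FPKM) and within Drug (26.4 FPKM) it also came after aqp10b, but in FM its median of 0.0666 FPKM was below those of aqp7 (1.205), aqp12 (0.141), aqp3a (0.0896) and aqp11 (0.0694). The ranges over libraries of neighbours in this order overlapped, those of aqp10b and aqp10a included, although aqp10b was above aqp10a within each library. The last in the order, aqp8b, had no count in 7 of the 9 libraries.

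**Figure D1:**
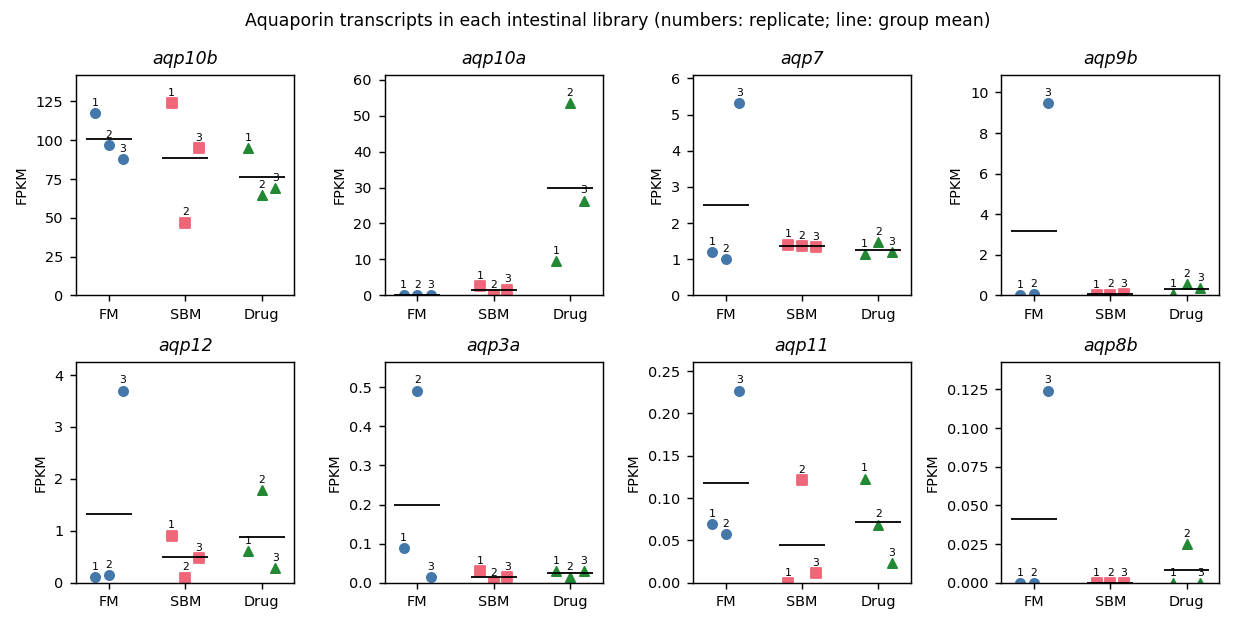
FPKM of each of the 8 aquaporin genes (vertical axes, each from 0 and with its own range) by group, with 1 point per library numbered by replicate and a line at the group mean of n = 3. The 3 Drug libraries are the highest for aqp10a, while FM replicate 3 is the highest library for aqp7, aqp9b, aqp12, aqp11 and aqp8b.

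The counts of aqp10a set the Drug libraries apart from the rest. In FM the gene had 6, 0 and 3 counts, in SBM 109, 2 and 75 counts, and in Drug 433, 2383 and 1173 counts, in order of replicate number. All 3 Drug libraries were above all 6 others, and SBM overlapped FM because SBM replicate 2 had fewer counts than FM replicates 1 and 3. Over all tested genes, 32.8% had Drug and FM groups that did not overlap, in either direction, and 19.9% had such Drug and SBM groups. In CPM the levels were 0.164, 0 and 0.0884 in FM, 3.79, 0.0574 and 2.23 in SBM, and 12.3, 68.1 and 34.4 in Drug. For the 0 of FM replicate 2, the value of 3 counts in that library, 0.0791 CPM, was taken as the limit. The exact Poisson interval used below reached 0.0973 CPM for it.

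Ordered by level, FM replicate 2, SBM replicate 2, FM replicate 3 and FM replicate 1 could not be ranked, as their exact Poisson intervals at 95% confidence overlapped. These intervals cover counting error only. SBM replicate 3 (1.76 to 2.80 CPM) and SBM replicate 1 (3.11 to 4.57 CPM) lay above those 4 and apart from each other. Drug replicate 1 (11.2 to 13.5 CPM), Drug replicate 3 (32.5 to 36.5 CPM) and Drug replicate 2 (65.4 to 70.9 CPM) lay higher again, with no overlap. Within Drug the highest level was 5.54 times the lowest.

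The group means of aqp10a were 0.0842 ± 0.0822 CPM in FM, 2.03 ± 1.87 in SBM and 38.3 ± 28.1 in Drug (SD, n = 3). As a description of the values that led to the choice of the gene, the fitted log2 fold change was 8.78 (SE 1.56) for Drug over FM. Summed over libraries, 3989 counts stood against 9, a ratio of 461 that pools the libraries and leaves out the spread between them. The SE values given for aqp10a are no test, as its levels led to its choice. SBM over FM had a log2 fold change of 4.53 (SE 1.495) and Drug over SBM of 4.25 (SE 1.17). These estimates rested on single libraries in part. Without SBM replicate 1 the value for SBM over FM was 3.72, without FM replicate 2 it was 3.94 and without FM replicate 1 it was 5.46. Drug over SBM was 5.08 without SBM replicate 1 and 3.55 without Drug replicate 2, and Drug over FM was 9.72 without FM replicate 1 and 8.09 without Drug replicate 2.

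The copy aqp10b did not separate the groups as aqp10a did. Its counts were 5521, 4564 and 4216 in FM, 5639, 2311 and 4648 in SBM, and 4623, 3063 and 3265 in Drug, and the 3 groups overlapped. SBM held both the highest library (replicate 1, 196 CPM) and the lowest (replicate 2, 66.3 CPM). Group means were 132 ± 16.7 CPM in FM, 134 ± 64.9 in SBM and 105 ± 23.3 in Drug (SD, n = 3). The log2 fold change was 0.02 (SE 0.34) for SBM over FM, with a Benjamini-Hochberg adjusted p of 0.982 by edgeR's quasi-likelihood test, and -0.35 (SE 0.34) for Drug over SBM, with an adjusted p of 0.702. Over the 9 libraries the Pearson r of aqp10b with aqp10a was -0.18 on the log2(CPM + 1) scale, a description of libraries that fall into groups.

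The share of aqp10a in the aqp10 pair was highest in the Drug libraries, while the summed level of the pair overlapped between groups. By FPKM, aqp10a was 0.115%, 0% and 0.0756% of the pair in FM, 2.01%, 0.0920% and 1.69% in SBM, and 9.06%, 45.3% and 27.6% in Drug. The pair together was at 100.9 ± 15.2 FPKM in FM, 90.0 ± 40.1 in SBM and 106 ± 11.3 in Drug (SD, n = 3). Drug replicate 2 had the highest aqp10a and the lowest aqp10b of its group, and Drug replicate 1 the reverse. How far reads pass between the copies was not tested; the lengths implied by the FPKM values were 1303 bases for aqp10a and 1386 bases for aqp10b.

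**Figure D2:**
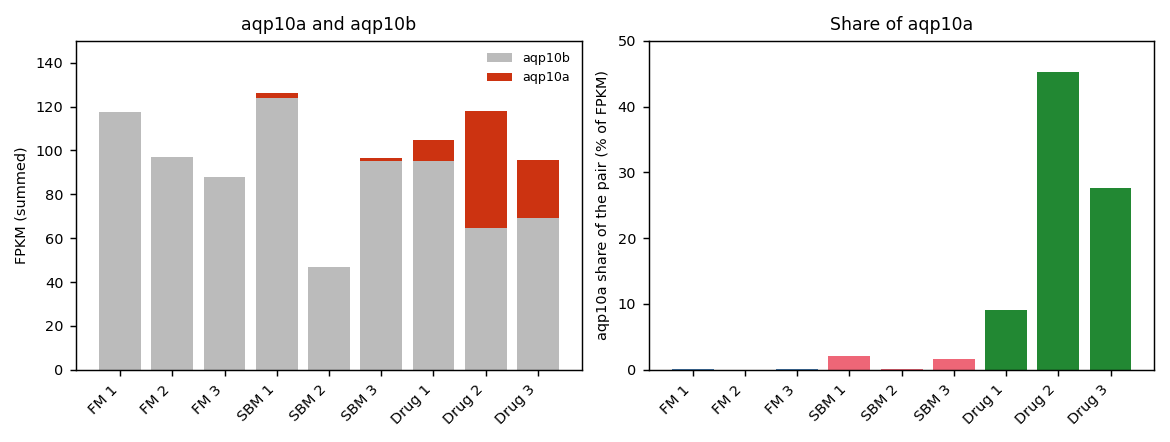
Left, FPKM of aqp10b (grey) with aqp10a (red) stacked on it for each library; right, aqp10a as a percentage of the FPKM of both. The share is at most 2.01% in the FM and SBM libraries and 9.06% to 45.3% in the Drug libraries, while the summed bar is lowest in SBM replicate 2.

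Summed levels of markers of intestinal regions differed between Drug and FM, as aqp10a did, though not every marker separated the groups. Of 25 listed anterior enterocyte markers, 6 were in the table. Their summed level was 670 to 2279 CPM in FM, and at most 956 CPM there without FM replicate 3. It was 1046 to 3393 CPM in SBM and 6261 to 8189 CPM in Drug. That sum was mostly fabp2, which made up 80.6% to 93.5% of it in the Drug libraries and 36.7% to 75.3% in FM. All 6 genes had a higher mean in Drug than in FM, pdx1 and chia.1 through 1 Drug library each. Only fabp2 and the peptide transporter slc15a1a were higher in every Drug library than in every FM library. These 2 of 6 stand beside 32.8% of all tested genes whose Drug and FM groups did not overlap, in either direction. Of the 6, chia.1 was below the filter on low counts and is not among the tested genes. Against SBM all 6 means were also higher in Drug, again through 1 library each for pdx1 and chia.1. There 3 genes (fabp2, apobb.1 and slc15a1a) did not overlap, beside 19.9% of all tested genes. The transcription factor pdx1 had means of 1.77, 1.34 and 1.96 CPM in FM, SBM and Drug. Its Drug mean rested on replicate 1, at 3.47 CPM, with 1.14 and 1.26 CPM in replicates 2 and 3. In FM pdx1 was at 1.37 to 2.22 CPM. The Drug mean of chia.1 rested on replicate 2, at 5.175 CPM, and chia.1 was at or below 0.201 CPM in the other 8 libraries. The apolipoprotein gene apobb.1 was highest in FM replicate 3, at 1295 CPM. In FM replicates 1 and 2 apobb.1 was at 3.37 and 0.0527 CPM, below its 131, 548 and 946 CPM in Drug. Without FM replicate 3 it too was thus higher in every Drug library than in FM. The matching share of all genes without that library was not computed. Within groups the order of the anterior sum matched that of aqp10a in part. SBM replicate 2 was lowest in both, whereas Drug replicate 2, with the highest aqp10a, had the lowest anterior sum of Drug. Without fabp2 the Drug sums were 431, 1150 and 1591 CPM in order of replicate number. Replicate 1 was then lowest, as for aqp10a, but replicate 3 was highest. FM replicate 3 had the highest anterior sum of FM with 0.0884 CPM of aqp10a. Of that sum 1295 CPM were apobb.1, in the library with 18910 CPM of hepatocyte markers. The 17 markers of posterior and lysosome-rich enterocytes, which take up protein from the gut lumen, had a lower sum in Drug, at 9747 to 12864 CPM against 21467 to 28620 CPM in FM. For 10 of the 17 every Drug library was below every FM library, beside the same 32.8% of all tested genes in either direction. Of the 17, hoxa13b was below the filter and is not among the tested genes. The mean was lower in Drug than in FM for 15 of the 17. The other 2, the cathepsin genes ctsla (157 against 110 CPM) and ctsba (254 against 233 CPM), had higher means in Drug. Against SBM 14 of the 17 means were lower in Drug, and 3 genes did not overlap, beside the same 19.9%. In SBM the posterior sum was 28045 CPM in replicate 2, against 10426 and 16450 CPM in replicates 1 and 3. At most 1 of the 6 anterior and 2 of the 17 posterior markers were at 0 in any library. The labels name no gut segment, and the part of these differences in the level of aqp10a was not tested.

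Likeness to aqp10a was ranked among 9208 named genes with a mean of at least 5 CPM in some group. As aqp10a was chosen for its high Drug level, and a gene could enter through Drug alone, the ranking is partly fixed by that choice. Of those named here, gatm, ankle1 and grhpra reached 5 CPM in Drug only. Over all the genes ranked, 6 had the highest Pearson r with aqp10a over the 9 libraries on the log2(CPM + 1) scale. They were gatm (arginine:glycine amidinotransferase, the first enzyme of creatine synthesis, r = 0.986), ankle1 (a DNA-cutting enzyme, 0.974), grhpra (glyoxylate and hydroxypyruvate reductase, 0.949), fam151a (0.948), tmprss15 (enteropeptidase, which activates trypsinogen, 0.948) and ada (adenosine deaminase, 0.946). The level of gatm was 0.657, 0.237 and 1.71 CPM in FM, 3.65, 0.574 and 3.48 in SBM, and 15.3, 87.8 and 28.9 in Drug. Like aqp10a it was lowest within SBM in replicate 2 and highest within Drug in replicate 2. The enteropeptidase gene tmprss15 was at 0.328, 0.0264 and 2.15 CPM in FM, 9.35, 0.373 and 8.85 in SBM, and 9.32, 52.2 and 43.5 in Drug, so its SBM and Drug groups overlapped.

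The most opposite genes were sypl2b (r = -0.981), cpox, an enzyme of heme synthesis (-0.973), and lrp2b, a copy of the endocytic receptor megalin (-0.959). The level of lrp2b was 1779 to 2671 CPM in FM and 755 to 1116 CPM in Drug. This ranking is a description of 9 libraries that share their groups, and its membership was loose: by Spearman rho 1 of the 6 most alike genes was among the top 6, without Drug replicate 2 it was 1, without FM replicate 3 it was 2, and without any one of the other libraries it was 4 to 6.

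**Figure D3:**
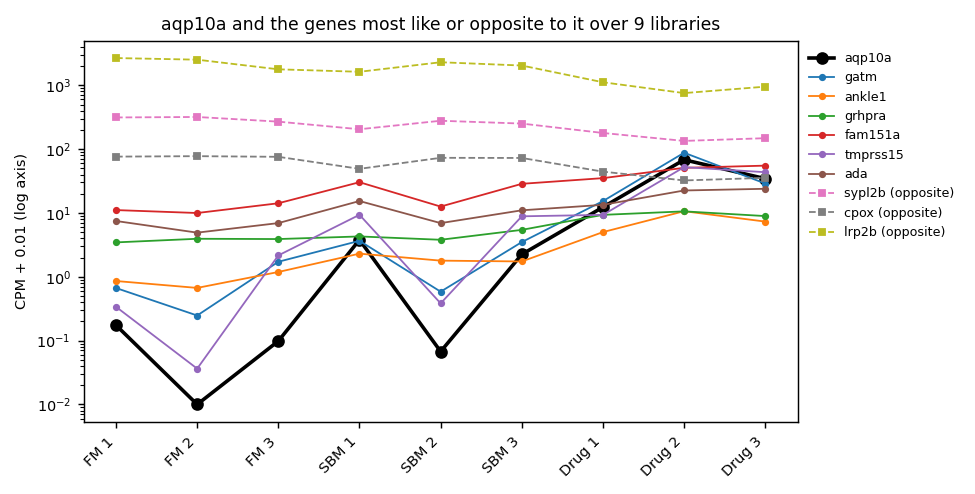
CPM plus 0.01 (log axis) of aqp10a, of the 6 genes most like it (solid) and of the 3 most opposite (dashed) in the 9 libraries; lines only join the values of a gene and replicates have no order. In SBM replicate 2 gatm and tmprss15 drop with aqp10a to 0.574 and 0.373 CPM, and lrp2b is lowest in the Drug libraries.

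Of the 8 aquaporins, 6 passed the filter on low counts and 2, aqp3a and aqp8b, did not. Apart from aqp10a, whose values led to the choice, the tested members were aqp7, aqp9b, aqp10b, aqp11 and aqp12. None of these 5 passed an adjusted p of 0.05 in SBM against FM, where 0.592% of 17731 tested genes did (105 genes, or 295 with the replicate number as a block). None passed in Drug against SBM either, where 0.0395% of genes did. At an unadjusted p under 0.05, 1 of the 5, aqp9b, passed in SBM against FM beside 20.5% of all genes, and 0 passed in Drug against SBM beside 13.1%. The unadjusted p of aqp9b by edgeR was 0.0394 without the replicate block and 0.137 with it. With the block 0 of the 5 passed in SBM against FM beside 23.9% of all genes, 0 in Drug against SBM beside 17.1% and 0 in Drug against FM beside 27.1%. Without FM replicate 3 the members past an unadjusted p of 0.05 were aqp7 in SBM against FM (18.7% of all genes), aqp9b in Drug against SBM (14.0%), and aqp9b and aqp12 in Drug against FM (23.0%), none of them past an adjusted p of 0.05. DESeq2 called 0 in both comparisons, of 4 and 3 members to which it gave an adjusted p, beside 8.83% and 3.85% of all genes. With all 9 libraries the groups overlapped for all 5 in both comparisons, while 22.8% and 19.9% of tested genes had groups that did not overlap. In Drug against FM, the comparison behind the choice of the family, 0 of the 5 passed beside 4.38% of all genes. There 0 of the 5 passed at an unadjusted p under 0.05 beside 23.8% of all genes, and DESeq2 called 0 beside 13.1%. With FM replicate 3 included, 0 of the 5 had groups that did not overlap, beside 32.8% of all genes. Without it, aqp7, aqp9b and aqp12 were each higher in every Drug library than in FM, and aqp7 in every SBM library too. The matching shares of all genes without that library were not computed.

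The aquaglyceroporin aqp7, which in mammals releases glycerol from fat cells, was highest in FM replicate 3. Its counts were 152, 127 and 683 in FM, 172, 179 and 175 in SBM, and 148, 187 and 151 in Drug. FM replicates 1 and 2, at 4.16 and 3.35 CPM, were below every SBM library (5.14 to 5.98 CPM) and every Drug library (4.21 to 5.35 CPM). The 683 counts were those of FM replicate 3, at 20.1 CPM against 3.35 to 5.98 CPM in the other 8 libraries. For SBM over FM the log2 fold change was -0.76 (SE 0.59, adjusted p = 0.506 by edgeR) with this library and 0.54 without it (adjusted p = 0.261). Drug over SBM was -0.22 (SE 0.59, adjusted p = 0.909), with means of 4.66 ± 0.603 and 5.44 ± 0.464 CPM (SD, n = 3).

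The glycerol channel aqp9b, which in mammals takes glycerol into hepatocytes, was abundant in the same library and scarce in the other 8. It had 1, 5 and 909 counts in FM, 3, 4 and 8 in SBM, and 5, 53 and 35 in Drug. FM replicate 3, the library with 18910 CPM of hepatocyte markers, was at 26.8 CPM of aqp9b, 17.7 times the next highest library. The log2 fold change for SBM over FM was -5.83 (SE 2.34, adjusted p = 0.219 by edgeR) with FM replicate 3 and 0.91 without it (adjusted p = 0.716). Drug replicates 2 and 3, at 1.52 and 1.03 CPM, were above the 0.238 CPM of the highest remaining FM or SBM library. Hepatocyte markers summed to 30.5 to 40.6 CPM in the Drug libraries and 29.8 to 36.6 CPM in SBM. The part of hepatocyte transcripts in the level of aqp9b was not tested. Drug over SBM had a log2 fold change of 2.51 (SE 2.27, unadjusted p = 0.302, adjusted p = 0.673 by edgeR). FM replicate 3 entered this comparison through the shared estimate of spread: without it the value was 2.52 with an SE of 0.87 (unadjusted p = 0.0188, adjusted p = 0.266). Drug replicate 1, with 5 counts, was inside the SBM range.

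The unorthodox member aqp12, which in mammals is found in acinar cells of the pancreas, had 3, 4 and 107 counts in FM, 25, 3 and 14 in SBM, and 18, 51 and 8 in Drug. FM replicate 3 (3.15 CPM), Drug replicate 2 (1.46), SBM replicate 1 (0.869) and Drug replicate 1 (0.512) were the 4 highest libraries. The 6 pancreatic acinar markers in the table, all detected in every library, summed to 2298, 2349, 3146 and 1651 CPM in those libraries and to 215 to 625 CPM in the other 5. By value the same 4 libraries, from all 3 groups, were thus the highest in both, though not in the same order. For aqp12 the exact Poisson intervals of Drug replicate 1 (0.303 to 0.809 CPM) and SBM replicate 3 (0.228 to 0.700 CPM) overlapped, so these could not be ranked. SBM replicates 2 and 3 had acinar sums of 625 and 619 CPM, with 0.0861 and 0.417 CPM of aqp12. The part of pancreatic transcripts in the level of aqp12 was not tested. The log2 fold change was -1.29 (SE 1.36, adjusted p = 0.627 by edgeR) for SBM over FM and 2.22 (adjusted p = 0.328) without FM replicate 3. Drug over SBM was 0.70 (SE 1.37, adjusted p = 0.868).

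**Figure D4:**
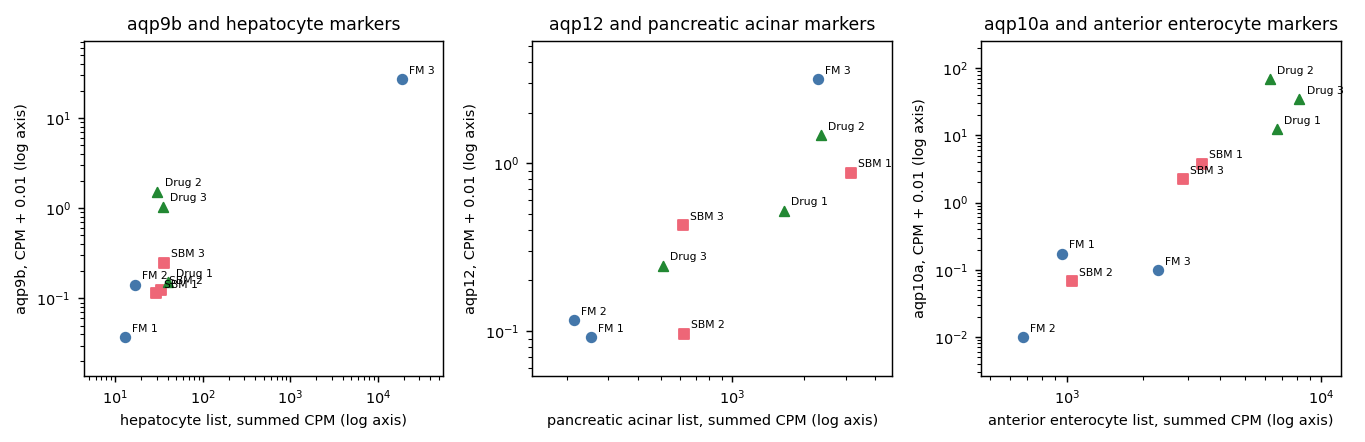
Each point is a library, with the summed CPM of a marker list (log axis) across and the CPM plus 0.01 of an aquaporin (log axis) upward; blue circles are FM, red squares SBM and green triangles Drug. FM replicate 3 lies far out for hepatocyte markers and aqp9b, and the Drug libraries are highest in anterior enterocyte markers and aqp10a. By value the 4 libraries highest in acinar markers are the 4 highest in aqp12. The counting intervals of aqp12 in Drug replicate 1 and SBM replicate 3 overlap.

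The remaining members were near the limit of detection. The distant member aqp11 had 6, 5 and 20 counts in FM, 0, 11 and 1 in SBM, and 11, 6 and 2 in Drug, with log2 fold changes of -1.27 (SE 1.09, adjusted p = 0.544 by edgeR) for SBM over FM and 0.59 (SE 1.13, adjusted p = 0.864) for Drug over SBM. Its highest library was again FM replicate 3. The channel aqp3a, an aquaglyceroporin of epithelial cells, had 6, 33 and 1 counts in FM, 2, 0 and 1 in SBM, and 2, 1 and 2 in Drug. Only FM replicate 2 was above 6 counts, at 0.870 CPM. The aqp8-type channel aqp8b had 5 counts in FM replicate 3, 1 count in Drug replicate 2 and 0 in the other 7 libraries. There 3 counts, taken as the limit for a count of 0, correspond to 0.0791 to 0.104 CPM.

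**Figure D5:**
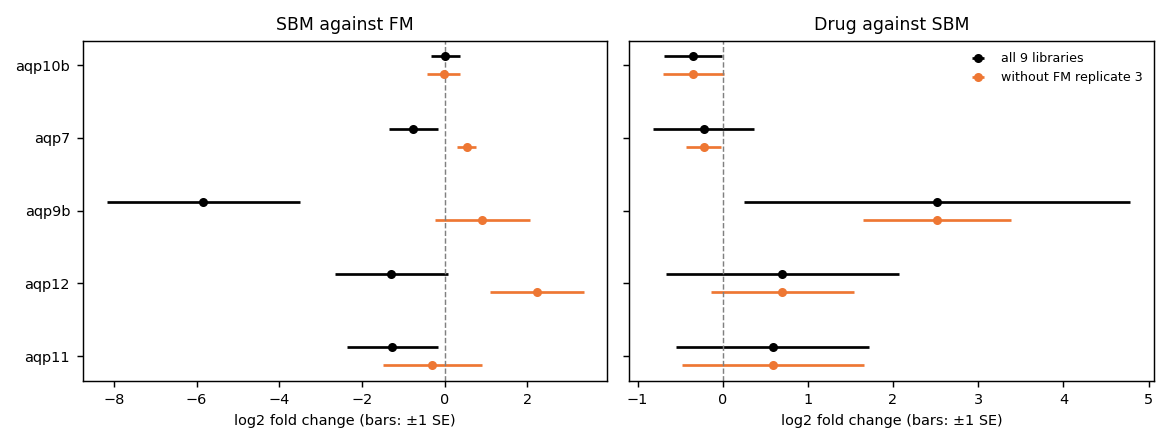
Fitted log2 fold changes (horizontal axis, bars ±1 SE) of the 5 tested aquaporins other than aqp10a, from all 9 libraries (black) and without FM replicate 3 (orange). For SBM against FM the values of aqp7, aqp9b and aqp12 change sign without that library, from -0.76, -5.83 and -1.29 to 0.54, 0.91 and 2.22.

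Genes that work beside aquaporins were read from 3 lists. Of 18 tested genes of glycerol handling, 1 rose in SBM against FM and 17 did not pass, beside 0.592% of all genes past the threshold. At an unadjusted p under 0.05 there were 4 of 18, near the 20.5% of all genes, and DESeq2 called 2, beside 8.83%. It was lipea, hormone-sensitive lipase, which frees fatty acids and leaves glycerol, at 31.1 CPM against 12.7 CPM (2.45-fold, SE 0.21 on the log2 scale, adjusted p = 0.0426 by edgeR). The count fell to 0 when any FM library, any Drug library or SBM replicate 3 was left out, on the 2 groups alone and in both FPKM fits, and was 2 without SBM replicate 2. The median log2 fold change of the list was 0.16, beside 0.01 over all tested genes.

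None of 19 tested genes of intestinal salt and water transport passed in SBM against FM with edgeR (3 at an unadjusted p under 0.05 and 3 with DESeq2, beside the same 20.5% and 8.83% of all genes), and their median log2 fold change was 0.32. Those with the smallest p were atp1b1b, a subunit of the sodium pump, with 1440 CPM for SBM against 808 CPM for FM (adjusted p = 0.0516), and the chloride-bicarbonate exchanger slc26a6, at 30.4 and 9.89 CPM (adjusted p = 0.0535). The number past the threshold was 1 with the replicate block and without Drug replicate 1, and 2 without SBM replicate 2 and with the stricter filter. None of 22 osmotic response genes passed (5 at an unadjusted p under 0.05, 1 with DESeq2), with a median of -0.06. The smallest p in that list was that of oxsr1b, a kinase that switches on sodium-potassium-chloride cotransport, with 7.58 CPM for SBM against 10.9 CPM for FM (adjusted p = 0.0999 by edgeR). Next came sgk1, a kinase induced by corticosteroids and cell volume change, with 297 and 161 CPM (adjusted p = 0.167).

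In Drug against SBM no gene of the 3 lists passed with edgeR, beside 0.0395% of all genes. At an unadjusted p under 0.05 there were 2 glycerol, 1 transport and 3 osmotic response genes beside 13.1% of all genes, and DESeq2 called 1 in each list beside 3.85%. Median log2 fold changes were 0.08, -0.21 and -0.10, beside -0.01 over all tested genes. The smallest p among glycerol genes were those of dgat2, which makes triglyceride from diglyceride, with 68.7 CPM for Drug against 15.1 CPM for SBM (adjusted p = 0.302 by edgeR), and of the phosphatidate phosphatase gene lpin1a, at 1.47 and 6.36 CPM (adjusted p = 0.335). Among transport genes they were those of the sodium pump subunit atp1b1a, with 75.4 CPM for Drug against 147 CPM for SBM (adjusted p = 0.180), and of slc15a1a, at 188 and 16.7 CPM (adjusted p = 0.392). In the osmotic response list they were those of oxsr1b, at 10.8 and 7.58 CPM (adjusted p = 0.199), and of hsd11b2, an enzyme that inactivates cortisol, at 19.0 and 36.7 CPM (adjusted p = 0.289). The comparison of Drug with FM, which shares its samples with the others, had 2 of 18 glycerol genes (lipea and mogat2, an acyltransferase that rebuilds fat from monoglyceride), 2 of 19 transport genes (slc26a6 and the sodium-bicarbonate cotransporter slc4a4a) and 0 of 22 osmotic response genes past the threshold with edgeR, beside 4.38% of all genes. At an unadjusted p under 0.05 there were 8, 8 and 5 genes beside 23.8%, and DESeq2 called 5, 5 and 4 beside 13.1%. Leaving out 1 library moved each of these 3 counts between 0 and 3. The glycerol count fell to 0 without FM replicate 2, Drug replicate 1 or Drug replicate 3 and to 1 without FM replicate 1, SBM replicate 3 or Drug replicate 2. The transport count fell to 0 without FM replicate 1, FM replicate 2 or Drug replicate 3 and to 1 without FM replicate 3 or Drug replicate 2. The osmotic count was 3 without SBM replicate 1, 2 without SBM replicate 2 and 1 without FM replicate 3. The genes of that comparison were named after their values were seen.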

How the data were processed

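TRIzol was used for intestinal RNA and a VAHTS Universal V6 kit for the libraries, per the labels' protocols. HISAT2, HTSeq, fastp, R 3.2.0, DESeq2 and the mouse build mm10 appear, without roles, per the submitters' processing notes. Which genome the fish reads were mapped against is not stated in these sources. The deposited counts are whole-number read counts per gene, and the 9 single-library files equal their columns of the series table. The authors' FPKM is scaled by the total count: FPKM times total over count was equal across libraries, within a relative tolerance of 1e-05, in all 15780 genes with at least 10 counts everywhere. Strand is not stated to be used, so antisense genes cannot be told apart, and reads of a hybrid may be lost where parental alleles differ from the reference.

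All 9 libraries and 3 groups entered 1 edgeR 4.0.16 model in R 4.3.3 (filterByExpr, TMM, robust quasi-likelihood F test, two-sided, 6 residual degrees of freedom, 17731 genes), tested on simulated data. SE was derived by dividing the size of each log2 fold change by the root of its F statistic. CPM uses the fit's effective library sizes. DESeq2 1.42.0 and limma 3.58.1 on log2(FPKM + 1) and log2(FPKM + 0.1) were alternatives, with other filters, factors, 2 groups alone, a replicate block and each library left out. Members and lists were chosen with earlier results of these data known. Named genes are all members, the 6 most like and 3 most opposite to aqp10a, and list genes past the threshold or, for a list with none in a comparison, the 2 with the smallest p. Lists were matched on symbol: 19 of 32 glycerol, 26 of 57 transport and 23 of 40 osmotic symbols were in the table. For the cell type markers these were 6 of 25 anterior, 17 of 22 posterior, 11 of 24 hepatocyte and 6 of 18 acinar symbols.

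The labels number replicates 1 to 3 in each group without saying what a number shares. Deviations of same-numbered libraries from their group means correlated at 0.155 to 0.318 in the 3 pairs of SBM and FM, so these were taken as paired from the data alone, and at 0.068 to 0.370 for Drug and SBM and 0.052 to 0.114 for Drug and FM, which were not. The fit with the replicate number as a block called 295 genes in SBM against FM, against 105 without the block. The block was set over all 9 libraries, so it also tied the Drug libraries by number. Values given for SBM against FM are from the fit without the block unless the block is named. Their SE and p-values thus leave the pairing of SBM and FM out. With it the log2 fold changes for SBM over FM were -0.42 for aqp7, -0.56 for aqp12, -4.27 for aqp9b and -1.42 for aqp11.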

Additional observations from a re-analysis of the deposited data

How the results depend on the processing

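The number of the 5 other tested aquaporins past the threshold was 0 under all 17 alternatives in each comparison. That 0 was fixed where a fit called no gene at all. This held on the 2 groups alone in SBM against FM and in Drug against SBM. In Drug against SBM it also held with log2(FPKM + 0.1), and without any 1 FM library, SBM replicate 2 or 3, or Drug replicate 2 or 3. Only 1 gene was called there with the block or without Drug replicate 1. In SBM against FM only 2 were called without FM replicate 1 or 2, SBM replicate 3, or Drug replicate 2 or 3. Such fits say little about these members. Not every alternative tested all 5. In SBM against FM the stricter filter dropped aqp9b, aqp11 and aqp12, the 2 groups alone dropped aqp9b and aqp11, and DESeq2 gave aqp9b no p. Of the log2 fold changes computed for these members, 222 of 241 kept their sign. Those of aqp10b for SBM over FM, 0.02 as reported, were -0.085 with the replicate block, -0.28 with log2(FPKM + 1), -0.29 with log2(FPKM + 0.1), and -0.36 to 0.34 leaving out 1 library (-0.05 without FM replicate 2, -0.02 without FM replicate 3, -0.36 without SBM replicate 1, -0.0067 without SBM replicate 3). Without FM replicate 3, aqp12, aqp7 and aqp9b were at 2.22, 0.54 and 0.91 for SBM over FM, and at 2.92, 0.31 and 3.42 for Drug over FM, with aqp11 at 0.29. For Drug over FM aqp12 was at 0.47 with the block and 0.48 with log2(FPKM + 0.1). For Drug over SBM, aqp10b was at 0.049 without SBM replicate 1, aqp11 at -0.044 without Drug replicate 1 and aqp12 at -0.26 without Drug replicate 2. Leaving out 1 library at a time, SBM over FM ranged from -2.13 to 2.22 for aqp12, -1.16 to 0.54 for aqp7 and -6.42 to 0.91 for aqp9b. Drug over SBM ranged from -0.66 to 0.049 for aqp10b, -0.044 to 3.26 for aqp11 and -0.26 to 1.55 for aqp12. Drug over FM ranged from -1.31 to 0.29 for aqp11, -1.54 to 2.92 for aqp12, -1.38 to 0.31 for aqp7 and -3.91 to 3.42 for aqp9b. Other than the left-out library, the cause was not tested.

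Calls over all genes moved most. In SBM against FM (105) they were 1597 with DESeq2, 213 with the stricter filter, 0 on the 2 groups alone (where genes at an unadjusted p under 0.05 numbered 2769), 295 with the replicate block, 49 and 69 in the FPKM fits, and 2 to 424 leaving out 1 library. In Drug against SBM (7) they were 614, 7, 0 (2162 unadjusted), 1, 4 and 0 (2425 unadjusted), and 0 to 36. In Drug against FM (777) they were 2431, 892, 1578, 1293, 664 and 628, and 10 to 1711. Numbers of Drug and SBM, and of Drug and FM, were not taken as paired, since 1 of 3 pairs in each was not over 0.1; yet each of the 9 libraries correlated best with its own number in another group, a hint of pairing from the data. With the block 4 glycerol and 3 osmotic response genes passed in Drug against FM, against 2 and 0. The block changed no call of an aquaporin other than aqp10a. The log2 fold changes of aqp10a were 1.002, 3.55 and 4.55 (SBM over FM, Drug over SBM, Drug over FM) with log2(FPKM + 1), a scale that understates changes of low genes.

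Low counts limit aqp3a, aqp8b and aqp11, with 48, 6 and 62 counts over the 9 libraries. The spread between libraries was a limit for aqp12, and for aqp3a and aqp11 as well. The counting intervals of their summed SBM over FM ratios excluded 1. These were 0.411 (0.281 to 0.590) for aqp12, 0.0837 (0.0166 to 0.263) for aqp3a and 0.432 (0.202 to 0.865) for aqp11. Yet the FM libraries held 3, 4 and 107 counts of aqp12 and 6, 33 and 1 of aqp3a, and the SBM libraries 0, 11 and 1 of aqp11.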
